A study of Mus musculus with 9 samples.

Results

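The 9 genes described here move fuel into and out of the cell and set the pace of glycolysis. They are the glucose transporters Slc2a1, Slc2a3, Slc2a6 and Slc2a8, the lactate transporters Slc16a1 and Slc16a3, the kinases Pfkfb3 and Pfkfb4, and the pyruvate dehydrogenase kinase Pdk1. They were taken by gene symbol, and all 9 were found among the 56691 genes of the table. The set was chosen with earlier results of these data known. RNA was sequenced from RAW264.7, an established line of mouse macrophages, which RANKL, the cytokine that drives osteoclast formation, turns into cells resembling osteoclasts. There were 3 groups of 3 libraries each, harvested after 3 days. Control cells received no RANKL, the RANKL group received RANKL at 50 ng/mL, and the RANKL + UD group received the same RANKL together with UD (uridine), at a dose that the sources used here do not name for these libraries. All 3 groups came from the same cell line and the labels name no genetic change, so they model differentiation of a line in culture and not of primary cells or bone.

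Glucose enters the cell down its gradient through facilitative transporters of the SLC2 (GLUT) family, of which GLUT1, encoded by Slc2a1, is the widespread basal carrier. The PFKFB enzymes make and break down fructose 2,6-bisphosphate, a strong activator of phosphofructokinase. Pyruvate is then either oxidised in mitochondria, which Pdk1 restrains by phosphorylating pyruvate dehydrogenase, or reduced to lactate, which crosses the membrane with a proton through the monocarboxylate transporters MCT1 (Slc16a1) and MCT4 (Slc16a3). Osteoclasts are known for a high energy demand, and both glycolysis and mitochondrial respiration change as they form.

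Against control, RANKL libraries had higher levels of Slc2a1, Slc16a3, Pfkfb3 and Pdk1, lower levels of Slc2a6, Slc2a8, Slc16a1 and Pfkfb4, and no called difference in Slc2a3. Against RANKL alone, RANKL + UD libraries had lower levels of Slc2a1, Slc2a3, Slc2a8, Slc16a3, Pfkfb3 and Pdk1 and a higher level of Slc16a1. All 4 genes that were higher with RANKL were lower again with UD, and Slc16a1 had the opposite course. A gene was called where its p-value from edgeR's quasi-likelihood test, adjusted by Benjamini-Hochberg over 11995 genes, was under 0.05, with all 9 libraries in 1 fit. Levels are given as FPKM, the deposited count divided by exonic length and total count. Setting levels of different genes side by side rests on that length, which is given per gene and not per transcript. Fold changes come from the counts after TMM scaling and can differ from the ratio of mean FPKM.

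Between RANKL and control, 4 of the 9 genes were called higher and 4 lower, where 57.6% of all tested genes were called (27.3% higher and 30.2% lower). Between RANKL + UD and RANKL, 1 was called higher and 6 lower, where 38.8% of all genes were called (18.6% higher and 20.2% lower). Between RANKL + UD and control, 4 were higher and 4 lower, where 54% of all genes were called (26.7% higher and 27.3% lower). Slc2a8, among the lower ones each time, passed the filter for testing (1 FPKM in 3 or more libraries) only through control and RANKL. Its lower direction in RANKL + UD was thus set in advance. The FPKM of the 3 libraries of each group did not overlap for 8 of the 9 genes in each of these comparisons, where 61.7%, 51.7% and 59.9% of all genes did not overlap. The median log2 fold change of the 9 genes was -0.029, -0.36 and -0.068, and that of all genes was -0.027, 0.0050 and -0.0021. The comparisons share libraries, so their values are given side by side.

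**Figure D1:**
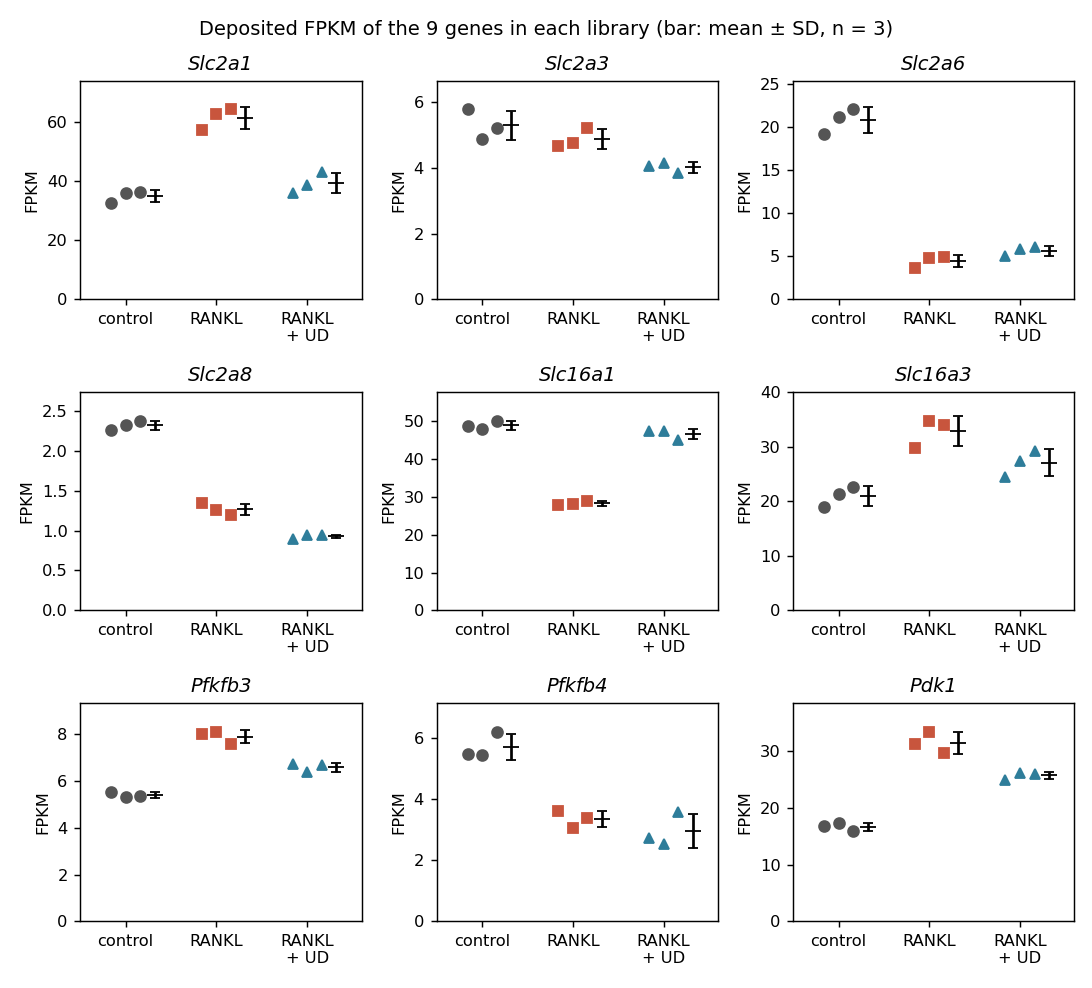
Deposited FPKM of the 9 genes in each library, with a panel for each gene and an axis from 0. Points are libraries (circles control, squares RANKL, triangles RANKL + UD) and bars are the mean ± SD of 3 libraries. Slc2a1, Slc16a3, Pfkfb3 and Pdk1 peak in RANKL, Slc16a1 is lowest in RANKL, and Slc2a6 is high in control only.

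The promoters of the 4 genes that were higher with RANKL and lower with UD are printed here beside that of Slc16a1, since genes that move together may be read for shared letters. Each window holds the 250 bases before a RefSeq start site on GRCm38.p6, read 5′ to 3′ along the gene's strand, and Pfkfb3 and Pdk1 are shown by the first of their listed promoters. Capitals mark matches to ACGTG or GCGTG, the core letters of hypoxia response elements, and to CACGTG, the E-box, on either strand. A match on the minus strand reads CACGT or CACGC, and every CACGTG also holds ACGTG on both strands. The windows of Slc2a1, Slc16a3 and Pfkfb3 reach into the GENCODE span of the gene, which begins further upstream than this RefSeq start.
Slc2a1 (chr4:119108495-119108744, plus strand): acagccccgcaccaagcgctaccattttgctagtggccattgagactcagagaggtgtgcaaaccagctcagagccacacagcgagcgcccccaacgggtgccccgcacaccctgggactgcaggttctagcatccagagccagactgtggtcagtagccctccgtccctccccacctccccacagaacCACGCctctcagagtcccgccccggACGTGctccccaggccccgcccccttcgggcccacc
Slc16a3 (chr11:120948817-120949066, plus strand): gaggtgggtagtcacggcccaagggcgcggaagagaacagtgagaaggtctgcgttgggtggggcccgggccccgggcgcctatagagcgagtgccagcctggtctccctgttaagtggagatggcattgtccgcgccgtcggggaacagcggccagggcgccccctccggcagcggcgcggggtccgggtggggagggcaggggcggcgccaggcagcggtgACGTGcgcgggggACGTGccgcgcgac
Pfkfb3 (chr2:11553930-11554179, minus strand): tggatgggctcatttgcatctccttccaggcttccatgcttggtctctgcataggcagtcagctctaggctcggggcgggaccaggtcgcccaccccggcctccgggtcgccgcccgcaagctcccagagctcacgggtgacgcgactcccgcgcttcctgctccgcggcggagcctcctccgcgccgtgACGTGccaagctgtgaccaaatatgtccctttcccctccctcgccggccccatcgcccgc
Pdk1 (chr2:71872974-71873223, plus strand): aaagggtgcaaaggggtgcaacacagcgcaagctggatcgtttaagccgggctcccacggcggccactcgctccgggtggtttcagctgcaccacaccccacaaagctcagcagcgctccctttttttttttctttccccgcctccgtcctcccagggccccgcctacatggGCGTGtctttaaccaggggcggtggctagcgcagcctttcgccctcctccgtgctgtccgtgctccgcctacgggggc
Slc16a1 (chr3:104638414-104638663, plus strand): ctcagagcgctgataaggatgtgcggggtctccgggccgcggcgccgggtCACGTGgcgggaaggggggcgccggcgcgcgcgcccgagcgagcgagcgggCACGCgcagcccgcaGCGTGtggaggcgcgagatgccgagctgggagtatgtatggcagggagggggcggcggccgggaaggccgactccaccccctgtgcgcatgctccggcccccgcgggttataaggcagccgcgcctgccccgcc

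In the Slc2a1 window, ACGTG began 36 bases before the start site. The Slc16a3 window held ACGTG at 27 and at 14 bases before the start, the Pfkfb3 window held it at 60 bases, and the Pdk1 window held GCGTG at 78 bases. The Slc16a1 window held an E-box at 200 bases and GCGTG on each strand. An E-box was also in the second promoter window of Pfkfb3, which is not printed, at 53 bases, so these letters were in windows of genes with either course. RefSeq promoters were matched for 8 of the 9 genes, all but Slc2a3, as 10 windows in all. Of these 10 windows, 9 held ACGTG or GCGTG, and 38.6% of all 32851 promoter windows of this length held either. The window with neither was the second promoter of Pdk1, which is not printed, so each of the 5 printed windows holds a match. The 9 windows with a match were 50 to 76.4% G or C, and that Pdk1 window was 38.4%. Both cores hold C and G side by side, and the part of base content in these counts was not tested. Of all windows, 16.6% held ACGTG, 28.2% GCGTG and 6.02% CACGTG. The AP-1 letters TGANTCA were searched in the same way and were in 6.75% of all windows and in 0 of the 10. The matches are described as letters only, since no binding was measured in these libraries, and genes that differed in either direction held them.

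The library totals were 15951800 to 19746862 counts in control, 19182637 to 19705724 in RANKL and 16311504 to 19657967 in RANKL + UD, and the counts of libraries within a group differed by more than sampling noise. The labels call the libraries replicate biosamples and say no more of their origin, so p-values measure the spread between these libraries, which may be technical. All 9 tested osteoclast markers (10 listed) were higher in RANKL than in control, where 27.3% of all genes were higher. All 9 were lower in RANKL + UD than in RANKL, where 20.2% of all genes were lower. Testing required 1 FPKM in 3 or more libraries. Itgb3 reached this only in RANKL (1.75, 1.29 and 1.27 FPKM), so its direction was set in advance in both comparisons. Mmp9 and Oscar reached it only in libraries given RANKL. Acp5, at 0.88, 0.80 and 1.05 FPKM in control, also passed only through libraries given RANKL. For Mmp9, Oscar and Acp5 the direction against control was thus set in advance. Mmp9 (log2 fold change 9.59) and Acp5 (8.91) differed most with RANKL, and Oscar (-1.53) and Mmp9 (-1.34) differed most with UD. The summed level of the osteoclast markers was 57.6 to 60.3 FPKM in control, 2715 to 2920 in RANKL and 1724 to 1761 in RANKL + UD, with Calcr, the marker not tested, at 0 in the control libraries and at most 0.49 FPKM elsewhere. Of 9 tested macrophage markers (10 listed), 8 were lower in RANKL than in control, Fcgr1 (-3.90) and Cd86 (-3.43) most. Among all genes, 30.2% were lower in that comparison. The other tested macrophage marker, Cd68, was higher (0.60, edgeR adjusted p = 1.07e-08). Cd86 reached 1 FPKM only in control, so its direction against control was set in advance. With UD 6 of the 9 were lower than in RANKL, Itgam (-0.46) and Cd68 (-0.37) most, 1, Adgre1, was higher (0.22) and 2 were not called. The summed level of the macrophage markers was 9424 to 10014.5 FPKM in control, 2528 to 2772 in RANKL and 2205 to 2339 in RANKL + UD. No fibroblast, lymphocyte or epithelial marker passed the filter, and each of these 3 lists summed to at most 1.21 FPKM in every library. The marker shift followed the same 3 groups as every result here, its part in the results was not tested, and in bulk RNA fewer cells of a type and less RNA per cell cannot be told apart.

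Slc2a1 (ENSMUSG00000028645, GRCm38 chr4:119108711-119137983, plus strand) encodes GLUT1 and was the most abundant of the 4 glucose transporters in every library. Its level was 32.6, 35.7 and 36.1 FPKM in the control libraries, 57.0, 62.4 and 64.1 in the RANKL libraries, and 36.03, 38.6 and 42.8 in the RANKL + UD libraries. The RANKL libraries lay above all 6 others, while control and RANKL + UD overlapped. The level was 1.87-fold higher in RANKL than in control (log2 fold change 0.90, SE 0.0623, adjusted p = 6.27e-11, edgeR). It was 1.66-fold lower in RANKL + UD than in RANKL (log2 fold change -0.73, SE 0.0619, adjusted p = 9.24e-09, edgeR). Against control, RANKL + UD was 1.13-fold higher (log2 fold change 0.17, 95% interval 0.04 to 0.30, edgeR adjusted p = 0.0274). This last call was lost without control replicate 1 (log2 fold change 0.13, edgeR adjusted p = 0.130), without RANKL + UD replicate 3 (0.10, adjusted p = 0.215) and with limma on log2(FPKM + 1) (0.16, adjusted p = 0.113).

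Slc2a3 (ENSMUSG00000003153, chr6:122727809-122801640, minus strand) encodes GLUT3, a carrier with high affinity for glucose. Its level was 5.78, 4.89 and 5.21 FPKM in control, 4.66, 4.75 and 5.22 in RANKL, and 4.07, 4.16 and 3.84 in RANKL + UD. Control and RANKL overlapped, and the RANKL + UD libraries lay below all 6 others. The difference between RANKL and control was not called (log2 fold change -0.029, 95% interval -0.20 to 0.14, edgeR adjusted p = 0.783), and its sign turned without control replicate 1 (0.042, adjusted p = 0.712) or RANKL replicate 1 (0.00062, adjusted p = 0.996). RANKL + UD was 1.29-fold lower than RANKL (log2 fold change -0.36, SE 0.0844, edgeR adjusted p = 0.00175) and 1.31-fold lower than control (-0.39, SE 0.0845, adjusted p = 0.00050). Slc2a3 was thus lower with UD than in either other group, with no called difference between those groups.

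Slc2a6 (ENSMUSG00000036067, chr2:27021363-27027998, minus strand) encodes GLUT6, a carrier found mainly on internal membranes of immune cells. It had the largest difference of the 9 genes between RANKL and control. Its level was 19.1, 21.2 and 22.0 FPKM in control, 3.65, 4.82 and 4.92 in RANKL, and 4.97, 5.79 and 6.02 in RANKL + UD. The control libraries lay far above the other 6, and the RANKL + UD libraries lay just above those of RANKL. RANKL was 4.38-fold lower than control (log2 fold change -2.13, SE 0.104, edgeR adjusted p = 1.77e-13), and RANKL + UD was 3.71-fold lower than control (-1.89, SE 0.102, adjusted p = 1.18e-12). Between RANKL + UD and RANKL the log2 fold change of 0.24 (95% interval 0.0047 to 0.47) did not pass (edgeR adjusted p = 0.101). When libraries were scaled by total counts only, it was 0.32 and passed (edgeR adjusted p = 0.0254).

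Slc2a8 (ENSMUSG00000026791, chr2:32972990-32982083, minus strand) encodes GLUT8, an intracellular carrier, and was the least abundant of the 9 genes. It was counted 122 to 147 times in control, 74 to 85 times in RANKL and 49 to 57 times in RANKL + UD, so its errors are the widest. Its level was 2.26, 2.32 and 2.38 FPKM in control, 1.34, 1.26 and 1.20 in RANKL, and 0.90, 0.94 and 0.94 in RANKL + UD. The groups did not overlap in any of the 3 comparisons. All RANKL + UD libraries were under 1 FPKM, so Slc2a8 passed the filter only through control and RANKL. Its lower direction in RANKL + UD was thus set in advance against both other groups. RANKL was 1.72-fold lower than control (log2 fold change -0.78, SE 0.165, edgeR adjusted p = 0.00037), and RANKL + UD was 2.50-fold lower than control (-1.32, SE 0.174, adjusted p = 1.43e-06). RANKL + UD was 1.45-fold lower than RANKL (-0.54, SE 0.182, edgeR adjusted p = 0.0229). That last call was lost without RANKL replicate 1 (log2 fold change -0.49, adjusted p = 0.0690), RANKL + UD replicate 1 (-0.53, adjusted p = 0.0606) or RANKL + UD replicate 2 (-0.54, adjusted p = 0.0510), each by edgeR.

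The mix of the 4 glucose transporters was computed within each library, where scaling between libraries cancels. The Slc2a1 share of their summed FPKM was 54.6, 55.7 and 55.0% in control, 85.5, 85.2 and 85.0% in RANKL, and 78.4, 78.0 and 79.9% in RANKL + UD. The Slc2a6 share was 31.98, 33.0 and 33.5% in control, 5.48, 6.58 and 6.52% in RANKL, and 10.8, 11.7 and 11.2% in RANKL + UD. Both shares were apart between all 3 groups. Over all assignments of the 9 libraries to 3 groups, the exact permutation p was 0.00357 for each, the smallest this design gives, and 0.00714 after adjustment over the 6 shares tested in the 3 families. The Slc2a8 share was 3.68% ± 0.0940 in control, 1.77% ± 0.215 in RANKL and 1.87% ± 0.106 in RANKL + UD (mean ± SD, n = 3; exact permutation p = 0.0214, adjusted 0.0321). The Slc2a3 share did not pass, at 8.41% ± 1.11, 6.80% ± 0.275 and 8.14% ± 0.877 (mean ± SD, n = 3; exact permutation p = 0.111). Comparisons of 3 libraries against 3 cannot give an exact two-sided p under 0.1, and the Slc2a1 and Slc2a6 shares reached that value in every pair of groups. The summed level of the 4 transporters was 63.2 ± 3.09 FPKM in control, 71.8 ± 4.58 in RANKL and 49.7 ± 3.83 in RANKL + UD (mean ± SD, n = 3). The Slc2a1 share in RANKL + UD thus lay nearer that in RANKL than that in control, while the FPKM of Slc2a1 alone lay nearer control.

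**Figure D2:**
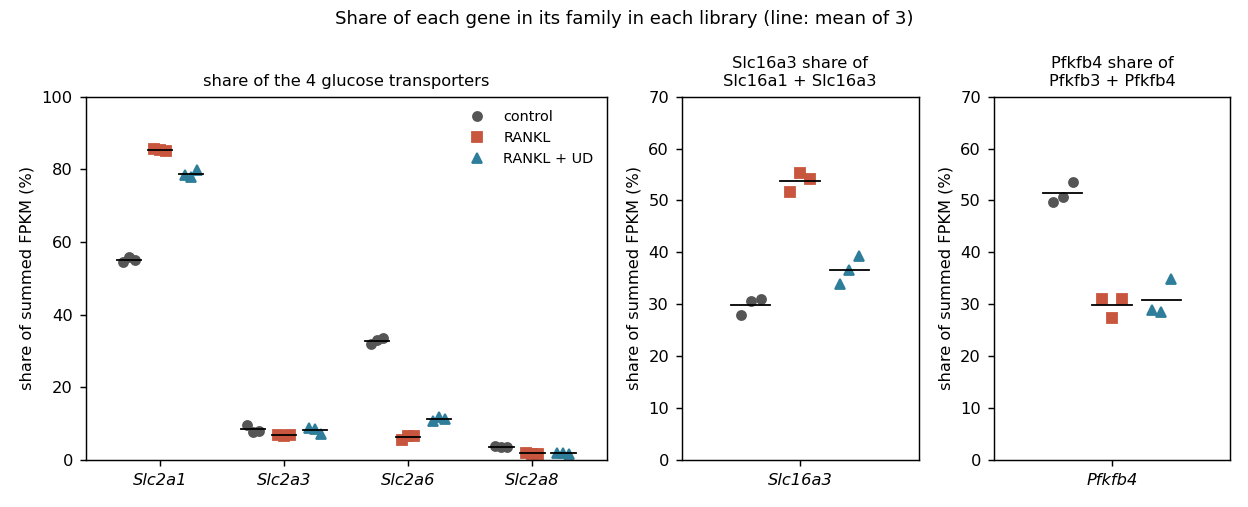
Share of each gene in the summed FPKM of its family (vertical axis, %) in each library, with lines at the mean of 3 libraries. Slc2a1 takes 85.2% of the glucose transporters in RANKL against 55.1% in control, Slc16a3 takes 53.7% of the lactate pair in RANKL against 29.9% in control, and the Pfkfb4 share overlaps between RANKL and RANKL + UD.

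Slc16a1 (ENSMUSG00000032902, chr3:104638668-104658462, plus strand) encodes MCT1, which carries lactate, pyruvate and ketone bodies in either direction. Its level was 48.7, 47.95 and 50.2 FPKM in control, 27.8, 28.1 and 28.9 in RANKL, and 47.4, 47.4 and 45.1 in RANKL + UD. The RANKL libraries lay well below all 6 others, and the RANKL + UD libraries lay just below those of control. RANKL was 1.63-fold lower than control (log2 fold change -0.70, SE 0.0474, edgeR adjusted p = 4.07e-11). RANKL + UD was 1.55-fold higher than RANKL (0.64, SE 0.0474, edgeR adjusted p = 1.64e-09). Between RANKL + UD and control the difference was not called, at a log2 fold change of -0.068 with a 95% interval of -0.17 to 0.03 (edgeR adjusted p = 0.231).

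Slc16a3 (ENSMUSG00000025161, chr11:120948480-120960868, plus strand) encodes MCT4, the lactate exporter typical of strongly glycolytic cells. Its level was 18.9, 21.2 and 22.6 FPKM in control, 29.7, 34.8 and 34.1 in RANKL, and 24.4, 27.5 and 29.3 in RANKL + UD. The 3 groups did not overlap, with RANKL + UD between the other groups. RANKL was 1.67-fold higher than control (log2 fold change 0.74, SE 0.0719, edgeR adjusted p = 1.59e-08). RANKL + UD was 1.29-fold lower than RANKL (-0.37, SE 0.0709, edgeR adjusted p = 0.000309) and 1.29-fold higher than control (0.37, SE 0.0724, adjusted p = 0.000186). With limma on log2(FPKM + 1) the difference between RANKL + UD and RANKL was -0.27 and did not pass (adjusted p = 0.0522). Slc16a3 overlaps Csnk1d on the opposite strand, which held 2030 to 2921 counts, and whether counting used the strand is not given in the sources used here. Csnk1d had a log2 fold change of 0.20 between RANKL and control (edgeR adjusted p = 0.00360) and of -0.010 between RANKL + UD and RANKL (adjusted p = 0.904), and its part in the Slc16a3 values was not tested.

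Of the 2 lactate transporters, Slc16a3 took 28.01, 30.7 and 31.1% of the summed FPKM in control, 51.6, 55.4 and 54.1% in RANKL, and 34.0, 36.7 and 39.4% in RANKL + UD. Slc16a1 was thus the larger of the pair in every control and RANKL + UD library, and Slc16a3 in every RANKL library. The shares differed between the groups (exact permutation p = 0.00357, the smallest this design gives; 0.00714 adjusted over the 6 shares). The summed level of the pair was 69.9 ± 2.67 FPKM in control, 61.1 ± 3.12 in RANKL and 73.7 ± 1.63 in RANKL + UD (mean ± SD, n = 3).

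Pfkfb3 (ENSMUSG00000026773, chr2:11471433-11554077, minus strand) encodes the isoform whose kinase activity far exceeds its phosphatase activity, so that it raises fructose 2,6-bisphosphate. Its level was 5.54, 5.30 and 5.37 FPKM in control, 8.03, 8.11 and 7.58 in RANKL, and 6.71, 6.38 and 6.70 in RANKL + UD. The 3 groups did not overlap, and RANKL + UD lay between the others. RANKL was 1.56-fold higher than control (log2 fold change 0.64, SE 0.0648, edgeR adjusted p = 3.03e-08). RANKL + UD was 1.27-fold lower than RANKL (-0.35, SE 0.0638, edgeR adjusted p = 0.000186) and 1.22-fold higher than control (0.29, SE 0.0656, adjusted p = 0.000797).

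Pfkfb4 (ENSMUSG00000025648, chr9:108991778-109032228, plus strand) encodes a second isoform of the same bifunctional enzyme, first described in testis. Its level was 5.48, 5.44 and 6.21 FPKM in control, 3.60, 3.06 and 3.40 in RANKL, and 2.72, 2.55 and 3.59 in RANKL + UD. Control lay above all 6 other libraries, and RANKL and RANKL + UD overlapped through RANKL + UD replicate 3. RANKL was 1.60-fold lower than control (log2 fold change -0.68, SE 0.116, edgeR adjusted p = 3.60e-05), and RANKL + UD was 1.93-fold lower (-0.95, SE 0.118, adjusted p = 6.80e-07). Between RANKL + UD and RANKL the log2 fold change was -0.27 (95% interval -0.52 to -0.016, edgeR adjusted p = 0.0872). Without RANKL + UD replicate 3 it was -0.43 and passed (edgeR adjusted p = 0.00962).

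Both PFKFB genes were thus near the same level in control, and Pfkfb3 was the more abundant in every library given RANKL. Pfkfb4 took 49.7, 50.7 and 53.6% of the pair's summed FPKM in control, 31.0, 27.4 and 31.0% in RANKL, and 28.8, 28.6 and 34.9% in RANKL + UD. The share differed over the 3 groups (exact permutation p = 0.0286, adjusted 0.0343 over the 6 shares), with control apart from both others. The difference between RANKL + UD and RANKL was 0.99 percentage points (exact permutation p = 0.8), and it turned to -0.20 points without RANKL replicate 2 and to -1.07 points without RANKL + UD replicate 3. The summed level of the pair was 11.1 ± 0.428 FPKM in control, 11.3 ± 0.334 in RANKL and 9.55 ± 0.688 in RANKL + UD (mean ± SD, n = 3).

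Pdk1 (ENSMUSG00000006494, chr2:71873224-71903858, plus strand) encodes a kinase that inactivates the pyruvate dehydrogenase complex. Its level was 16.7, 17.3 and 15.8 FPKM in control, 31.3, 33.4 and 29.6 in RANKL, and 24.99, 26.2 and 25.9 in RANKL + UD. The 3 groups did not overlap, and RANKL + UD lay between the others. RANKL was 2.01-fold higher than control (log2 fold change 1.01, SE 0.0526, edgeR adjusted p = 5.64e-13). RANKL + UD was 1.30-fold lower than RANKL (-0.38, SE 0.0515, edgeR adjusted p = 6.34e-06) and 1.55-fold higher than control (0.63, SE 0.0527, adjusted p = 1.66e-09).

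**Figure D3:**
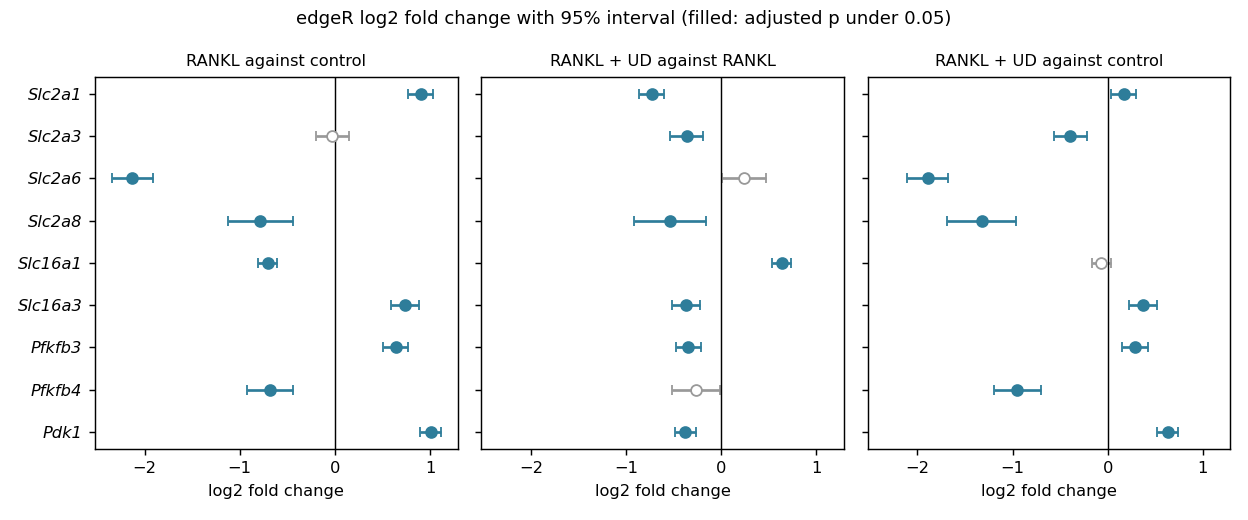
Log2 fold changes of the 9 genes from edgeR (horizontal axis) in the 3 comparisons, with 95% intervals of the fit. Filled points have an adjusted p under 0.05, and open points, among them Slc2a3 for RANKL against control (-0.029) and Slc2a6 and Pfkfb4 for RANKL + UD against RANKL (0.24 and -0.27), do not.

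The course of Slc2a1, Slc16a3, Pfkfb3 and Pdk1, higher with RANKL and lower with UD, was that of 11.5% of all genes, that of Slc16a1 was shared by 10.5%, and that of Slc2a8, lower at each step, by 4.05%. The lower level of Slc2a8 with UD was set in advance by the filter, as given above. The split of all calls depended on the scaling. For RANKL against control it was 3278 higher and 3628 lower with TMM and 2579 and 4421 with total counts, and for RANKL + UD against RANKL it was 2233 and 2418 with TMM and 3350 and 1707 with total counts.

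In order of level, control cells had Slc16a1 first, then Slc2a1, Slc16a3, Slc2a6, Pdk1, Pfkfb4, Pfkfb3, Slc2a3 and Slc2a8. Neighbours whose libraries overlapped were Slc16a3 and Slc2a6, Pfkfb4 and Pfkfb3, and Pfkfb3 and Slc2a3. In RANKL cells the order was Slc2a1, Slc16a3, Pdk1, Slc16a1, Pfkfb3, Slc2a3, Slc2a6, Pfkfb4 and Slc2a8, with overlap between Slc16a3 and Pdk1 and between Slc2a3 and Slc2a6. In RANKL + UD cells Slc16a1 was again first, followed by Slc2a1, Slc16a3, Pdk1, Pfkfb3, Slc2a6, Slc2a3, Pfkfb4 and Slc2a8, with overlap between Slc16a3 and Pdk1. The top place was therefore held by Slc16a1 in control and RANKL + UD and by Slc2a1 in RANKL, while Pdk1 stood below Slc2a6 in control and above it in both groups given RANKL.

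Most other carriers of the hexose family were below the expression filter. For this list and those after it, 57.6% of all genes were called between RANKL and control. Between RANKL + UD and RANKL that share was 38.8%. Of 13 further hexose and hexose phosphate carriers, 4 passed the filter, and between RANKL and control 2 were higher and 2 lower, with a median log2 fold change of 0.027. Slc37a2, a sugar phosphate exchanger known from macrophages and osteoclasts, was at 15.96, 16.4 and 17.9 FPKM in control, 152, 151 and 156 in RANKL, and 106, 107 and 109 in RANKL + UD. That was 9.72-fold higher in RANKL than in control (edgeR adjusted p = 2.12e-21) and 1.51-fold lower in RANKL + UD than in RANKL (adjusted p = 2.91e-09), the same course as Slc2a1 with a larger first step. Slc37a4, the glucose 6-phosphate carrier of the endoplasmic reticulum, had log2 fold changes of 0.83 and -0.63 in the same comparisons, and Slc2a9, a urate carrier, and Slc37a1, a sugar phosphate exchanger, had -0.98 and -0.78 between RANKL and control. Slc37a1 was at 0.99, 0.88 and 0.63 FPKM in RANKL, under the filter, so its direction against control was set in advance. With UD 0 of the 4 were higher and 2 lower than in RANKL (edgeR, median -0.35), the other 2 being Slc2a9 and Slc37a1 (log2 fold changes -0.096 and 0.21). The insulin-responsive carrier Slc2a4 was listed at most at 0.28 FPKM and the intestinal carrier Slc5a1 at 0 in every library.

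Of 15 further monocarboxylate carriers and chaperones, 7 passed the filter, with 2 higher and 4 lower between RANKL and control (median -0.57) and 3 higher and 2 lower between RANKL + UD and RANKL (median -0.0014). Bsg, which encodes basigin, the chaperone that takes MCT1 and MCT4 to the membrane, was at 99.5, 99.8 and 97.8 FPKM in control, 139, 141 and 151 in RANKL, and 122, 120 and 118 in RANKL + UD. The Bsg level was 1.54-fold higher in RANKL than in control (edgeR adjusted p = 2.89e-10) and 1.27-fold lower in RANKL + UD than in RANKL (adjusted p = 6.11e-06), so it followed Slc16a3 and not Slc16a1. Slc16a7, the high-affinity carrier MCT2, was likewise higher with RANKL (log2 fold change 1.00) and lower with UD (-0.21). Slc16a4 had the course of Slc16a1 at a low level, at a mean of 2.10, 0.84 and 2.90 FPKM in control, RANKL and RANKL + UD, with log2 fold changes of -1.23 and 1.70. In RANKL it was at 0.99, 0.64 and 0.89 FPKM, so it passed the filter only through control and RANKL + UD. The direction of Slc16a4 was thus set in advance in both comparisons. Slc16a12, a creatine carrier, was higher with UD (0.78, edgeR adjusted p = 7.29e-06) at a mean of 5.24, 3.32 and 6.04 FPKM, and Slc16a13 was lower with RANKL (-0.83, adjusted p = 0.000122).

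Around the PFKFB kinases, 2 of 5 further regulators passed. Pfkfb2, the isoform best known from heart, was at a mean of 3.18, 5.54 and 6.25 FPKM in control, RANKL and RANKL + UD, with a log2 fold change of 0.89 for RANKL against control (edgeR adjusted p = 1.54e-08). The difference with UD was 0.087 (adjusted p = 0.435). Tigar, which removes fructose 2,6-bisphosphate, had -0.35 and then 0.32 (edgeR adjusted p = 0.00360 and 0.0115), opposite in sign to Pfkfb3 at each step. Of 6 further regulators of pyruvate dehydrogenase, 5 passed, with 3 higher and 1 lower with RANKL (median 0.50), and 1 higher and 2 lower with UD (median -0.20). Pdk3, a second kinase of the complex, was 1.99-fold higher with RANKL (edgeR adjusted p = 7.97e-11), and its log2 fold change with UD was -0.17 (adjusted p = 0.0517). Pdp1, a phosphatase that reverses these kinases, had -0.42 and -0.43 in the same comparisons (edgeR adjusted p = 0.000752 and 0.00164). Pdk2, another of the kinases, had 0.80 and -0.68 (edgeR adjusted p = 0.00140 and 0.00784), the largest difference with UD in this list, at a mean of 1.09, 1.79 and 1.19 FPKM. Pdp2, the other phosphatase, was higher with UD (0.35, edgeR adjusted p = 0.00119), opposite to Pdp1. The complex itself and the mitochondrial pyruvate carrier had 6 of 7 genes higher with RANKL (median 0.56) and 2 higher and 1 lower with UD (median 0.058). Pdhb (0.82) and Dld (0.61) differed most with RANKL, and with UD Pdhx (0.29) and Dlat (0.17) were higher and Pdhb (-0.21) was lower.

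Of 18 glycolytic enzymes, 17 passed the filter. Among all tested genes, 27.3% were higher in RANKL than in control and 20.2% were lower in RANKL + UD than in RANKL. Between RANKL and control 15 were higher and 0 lower (edgeR; the other 2 were Pfkm and Aldoc, at log2 fold changes of 0.17 and 0.094), with a median of 0.73. Between RANKL + UD and RANKL 0 were higher and 15 lower (edgeR; the other 2 were Pfkm at -0.13 and Gapdh at -0.12), with a median of -0.33. Ldha, which makes lactate from pyruvate, was at a mean of 280, 595 and 502 FPKM in control, RANKL and RANKL + UD, and Pfkl, the liver-type phosphofructokinase, had log2 fold changes of 1.06 and -0.38. Hk3, a hexokinase of myeloid cells, was at a mean of 21.7, 34.0 and 17.2 FPKM, the largest difference with UD in the list (log2 fold change -1.06, edgeR adjusted p = 1.14e-11), and Eno2 had -0.82. Several glycolytic genes, Gapdh among them, have near-identical pseudogenes, and how shared reads were counted is not given in the sources used here. Gapdh was at a mean of only 16.2, 24.4 and 23.9 FPKM in control, RANKL and RANKL + UD, far below Ldha. The reason was not tested, so its fold changes are to be read with care.

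**Figure D4:**
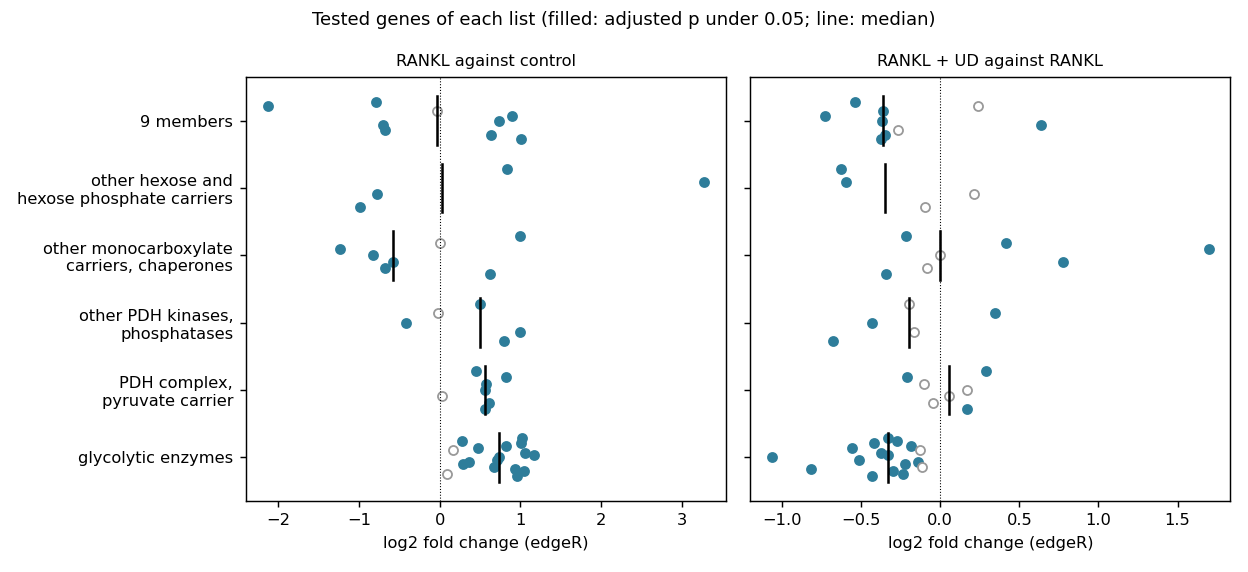
Log2 fold changes from edgeR (horizontal axes, with different ranges) of the tested genes in 6 lists, for RANKL against control and RANKL + UD against RANKL. Points are genes, filled where the adjusted p is under 0.05, and black lines are list medians, which for the glycolytic enzymes are 0.73 and -0.33 against -0.027 and 0.0050 for all genes.

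Among 14 genes known to regulate these transporters and kinases, 13 passed the filter. Between RANKL and control 4 were higher and 3 lower (median -0.037), where 57.6% of all genes were called. Between RANKL + UD and RANKL 2 were higher and 6 lower (median -0.17), where 38.8% of all genes were called. Myc, a transcription factor with glycolytic targets, was at 0.83, 0.73 and 0.74 FPKM in control, 36.1, 35.2 and 37.5 in RANKL, and 14.8, 13.2 and 14.1 in RANKL + UD. That was 50.3-fold higher with RANKL (edgeR adjusted p = 1.31e-20) and 2.74-fold lower with UD (adjusted p = 1.59e-12). Myc passed the filter only through libraries given RANKL, so its direction against control was set in advance. Txnip, whose product draws GLUT1 from the surface, was at 330, 348 and 340 FPKM in control, 39.6, 38.6 and 41.3 in RANKL, and 196, 202 and 205 in RANKL + UD. Txnip was thus 8.02-fold lower with RANKL (edgeR adjusted p = 3.13e-21) and 4.75-fold higher with UD (adjusted p = 5.17e-18), opposite in sign to Slc2a1 at each step. Its relative Arrdc4, which likewise restrains glucose uptake, was 7.08-fold lower and then 7.25-fold higher (edgeR adjusted p = 6.66e-12 and 6.58e-11). Arrdc4 was at 0.45, 0.41 and 0.46 FPKM in RANKL and passed the filter only through control and RANKL + UD. Both of its directions were thus set in advance. Hif1a, the oxygen-regulated factor that binds the hypoxia response core, was at a mean of 36.02, 33.0 and 36.6 FPKM, and its RNA was not called in either comparison (log2 fold changes -0.037 and 0.062, edgeR adjusted p = 0.534 and 0.335). Egln1, the oxygen sensor that marks that factor for destruction, had log2 fold changes of 0.53 and -0.51 (edgeR adjusted p = 7.39e-07 and 3.46e-06). Sirt6, a deacetylase that represses glycolytic genes, was lower with UD (-0.59, edgeR adjusted p = 0.000903).

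Among all tested genes, 26.7% were higher and 27.3% lower in RANKL + UD than in control. Against control, RANKL + UD libraries had 10 glycolytic enzymes higher, Ldha (log2 fold change 0.84) and Eno1 (0.75) most. In the same list 2 were lower, Hk3 (-0.33) and Aldoc (-0.14), and the list median was 0.23. The pyruvate dehydrogenase complex and carrier had 6 of 7 genes higher, Pdhx (0.74) and Mpc2 (0.73) most, and 0 lower (edgeR; the other was Mpc1 at 0.088). Of the regulators of that complex 3 were higher, Pdk3 (0.82) and Pdp2 (0.32) most, and 1, Pdp1 (-0.85), was lower. Of the further hexose carriers 1, Slc37a2 (2.68), was higher and 2, Slc2a9 (-1.08) and Slc37a1 (-0.57), were lower. Of the further monocarboxylate carriers and chaperones 4 were higher, Slc16a7 (0.78) and Slc16a4 (0.47) most, and 2, Slc16a13 (-0.83) and Slc16a10 (-0.77), were lower. Pfkfb2 was higher (0.97). Of the 13 regulators 1, Myc (4.20), was higher and 6 were lower, Egln3 (-2.06) and Txnip (-0.75) most. The osteoclast markers were higher in 9 of 9, Acp5 (8.56) and Mmp9 (8.26) most. The macrophage markers were lower in 8, Fcgr1 (-3.82) and Cd86 (-3.02) most, and higher in 1, Cd68 (0.23). As above, Acp5, Mmp9, Oscar and Myc passed the filter only through libraries given RANKL, Itgb3 only through RANKL alone, and Cd86 only through control.

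For each gene, the genes most like it over the 9 libraries were ranked by Pearson r of log2 CPM among all tested genes, as a description in which the points share their groups. Capg (r = 0.995) and Ctsd (0.987) were nearest to Slc2a1, Pbk (0.996) and Aaas (0.990) to Slc16a1, and Tmed3 (0.990) and Ttyh2 (0.987) to Slc16a3. Sec23a (0.996) and Gab2 (0.993) were nearest to Pfkfb3, Rps6ka5 (0.988) and Tfeb (0.986) to Pfkfb4, and Tgfbr1 and Pheta1 (both 0.996) to Pdk1. Pik3r6 (0.998) and C1ra (0.997) were nearest to Slc2a6, Ifi203 and Atp8b4 (both 0.998) to Slc2a8, and Gm6166 (0.959) and Tbpl1 (0.958) to Slc2a3, which had the weakest match of the 9. Capg, an actin-capping protein, was at a mean of 247, 352 and 271 FPKM in control, RANKL and RANKL + UD, and Pbk, a mitotic kinase, at 35.3, 14.7 and 31.8.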

How the data were processed

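The 9 libraries of RAW264.7 RNA were assigned by their labels to control, RANKL and RANKL + UD, 3 to each (the table's columns name the RANKL group as the paper does, Model). The authors deposited whole-number counts per gene without normalization, and FPKM made from those counts, the exonic length and the total count, which a recomputation matched within 0.00501 for 100% of values. The labels name poly(A) selection, strand-marking dUTP libraries and build mm10. The paper names Illumina NovaSeq and DESeq2, and the aligner, counter and annotation release are not given in the sources used here. Although the labels name mm10, only 1435 of 52073 shared genes had identical coordinates in the GRCm38 annotation (GENCODE M21). The same chromosome and span length were found for 50346, so most positions were shifted and are not those of mm10. Gene coordinates were therefore taken from that annotation by gene identifier, and none was converted. Promoter windows came from RefSeq (GRCm38.p6), and protein sequences were not used here. Each of the 18 value columns matched a library.

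Counts were tested with edgeR 4.0.16 (quasi-likelihood, TMM, R 4.3.3, all 9 libraries in 1 fit) on the 11995 genes whose FPKM reached 1 in 3 or more libraries, called at an adjusted p under 0.05 (Benjamini-Hochberg). The common dispersion was 0.00401. The chi-square per degree of freedom within groups was 2.83 to 8.22 over 9 pairs, so no libraries were merged. Shares within a family were taken over its members among the 9 genes only and used exact permutation tests (numpy 2.4.6). Over the 3 groups the statistic was the between-group sum of squares, and pairs of groups were tested two-sided. Intervals are 95%. The genes named were the 9 members, in each list the 2 with the largest called change in each direction, and the 2 genes most like each member. Other named genes (Slc2a4, Slc5a1, Pfkm, Gapdh, Mpc1, Hif1a, Calcr, Itgb3 and Csnk1d, which overlaps Slc16a3) were chosen after their values were seen. The members and lists were themselves chosen with earlier results of these data known. Alternatives were RLE size factors, total counts, other filters, DESeq2 1.42.0, limma 3.58.1 on log2(FPKM + 1) or log2(FPKM + 0.1), only 6 libraries, the replicate number as a block, and each library left out. The procedure was tested on simulated data. At this depth 3 counts or fewer were treated as the floor, which no member reached.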

Additional observations from a re-analysis of the deposited data

How the results depend on the processing

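Over all alternatives, 469 values for single genes kept their call and direction, 4 newly passed, 11 no longer passed and 2 changed sign, and of the counts and shares 269 kept theirs, 5 counts moved by over 1.5 times and 2 shares changed sign. With total counts and no further scaling, RANKL + UD exceeded RANKL in 2 members instead of 1 and in 3350 of all genes instead of 2233, and the median log2 fold change of all genes between RANKL and control was -0.12. Slc2a8 then no longer passed between RANKL + UD and RANKL (-0.45, edgeR adjusted p = 0.0514), nor did it without the filter (-0.53, adjusted p = 0.0627). Limma called 1539 genes lower in RANKL + UD than in RANKL with a pseudocount of 1 and 1488 with 0.1, instead of 2418. The Slc16a3 difference there was -0.28 with 0.1 (limma adjusted p = 0.0627), and that of Slc2a1 between RANKL + UD and control was 0.17 (adjusted p = 0.124). With a library left out, Slc2a3 in RANKL against control ranged from -0.088 to 0.042, with 0.00062 without RANKL replicate 1, and the difference of the Pfkfb4 share between RANKL + UD and RANKL, 0.99 points, ranged from -1.07 to 2.09 points. The causes were not tested. Same-numbered replicates did not deviate together in all pairs (r from -0.032 to 0.17). Differently numbered ones had r from -0.18 to 0.11, so these values do not settle whether the numbers pair libraries. The labels state no pairing, and none was taken. The replicate block raised the number of members above RANKL to 2, with Slc2a6 at 0.24 (adjusted p = 0.0361), and the lower ones to 7, with Pfkfb4 at -0.28 (adjusted p = 0.0448), and changed no other member's call. Depth limits Slc2a8 most, at 49 to 147 counts a library.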
